A study of Mus musculus with 6 samples.

Results

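Interferon-stimulated genes were followed in mouse Treg (regulatory T cells), which express Foxp3 and hold immune responses in check. The list holds 43 genes, given by symbol and picked for their known induction by interferons. Of these, 38 were measured, among 12393 genes in all. A gene was measured where at least 1 probe set carried its symbol and no other, and where a gene had several, the brightest on average over the 6 arrays stood for it. Isg15 and Ifi203 had only probe sets annotated with several genes, and Ddx58, Ifi44 and Xaf1 had no annotated probe set, so these 5 have no values here. The members were not chosen by their values in these arrays, but earlier results of the same arrays were known when they were listed.

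Interferons are secreted proteins that warn cells of infection. Type I interferons bind the receptor made of Ifnar1 and Ifnar2, whose kinases Jak1 and Tyk2 activate a complex that holds Stat2 and Irf9. That complex binds the interferon-stimulated response element (ISRE) and switches on Oas, Ifit and Mx genes, among many others. Interferon gamma signals through Ifngr1 and Ifngr2 with Jak1 and Jak2, acts through the gamma-activated sequence (GAS) and induces Irf1, the immunity-related GTPases and the guanylate-binding proteins. T cells also express many of these genes at rest, through a low tonic signal. The sets overlap, since many of these genes answer to both kinds of interferon.

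CD4+YFP+ Treg had been sorted from C57BL/6-background mice and their RNA hybridised, with 1 array for each of 3 control and 3 USP7-titled samples. Controls carry B6_WT titles and the genotype Foxp3cre, in which Cre is made by Foxp3-expressing cells. In the other arrays the titles name USP7 and the series text gives floxed Usp7 with Foxp3cre, but the genotype field reads fl-HDAC11/Foxp3cre. Both groups therefore carry Foxp3cre, and groups were taken from the titles. Sources used here give no age. The series text calls the samples independent without naming animals, so p-values here reflect only how far these samples vary, which may be technical variation.

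Across the series, array medians ran from 7.91 to 7.96 on the log2 scale and arrays within a group correlated at r of 0.9913 or more, against 0.9688 to 0.9739 between groups. Usp7, the deubiquitinase named in the titles, stood at 49.6% of its control level (change -1.01, SE 0.070, limma adjusted p = 1.32e-06), and the dim Hdac11 also fell (change -0.58, SE 0.16, limma adjusted p = 0.0154). Without control replicate 1 the adjusted p of Hdac11 was 0.0742, and without USP7-titled replicate 2 it was 0.0559. Where these probes lie relative to a deleted part was not analysed, so they do not settle the allele. The T cell genes Cd4 and Cd3d were high in every array, but Foxp3 itself, the defining Treg marker, read 12.82, 13.13 and 12.99 in controls against 6.85, 7.29 and 6.87 in the USP7-titled group. Xist, made from the inactive X chromosome, was at 12.43 to 12.54 in controls against 4.63 to 5.65 in the USP7-titled group, and the Y-linked Eif2s3y at 3.99 to 5.25 and 10.09 to 10.19. Group and sex cannot be told apart. In bulk RNA, fewer cells of a type and less RNA per cell cannot be told apart either.

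Interferon-stimulated genes were more often lower than higher in USP7-titled arrays, with small changes. Of the 38 measured, 12 fell, 5 rose and 21 did not pass limma's test at an adjusted p of 0.05, with Benjamini-Hochberg adjustment over all 12393 genes. Over all genes 15.9% fell and 17% rose, together 32.9%, whereas 31.6% of the measured members fell and 13.2% rose. Their median log2 change, USP7-titled minus control, was -0.15, against -0.05 for all genes. Of the 12 falls, 5 were Oas and Ifit genes, 3 were Schlafen genes, 2 were transcription factors, 1 was a GTPase and 1 was Usp18. Changes of 2-fold or more that passed numbered 2, Slfn8 and the very dim Ifi204, beside 4.35% of all genes.

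**Figure D1:**
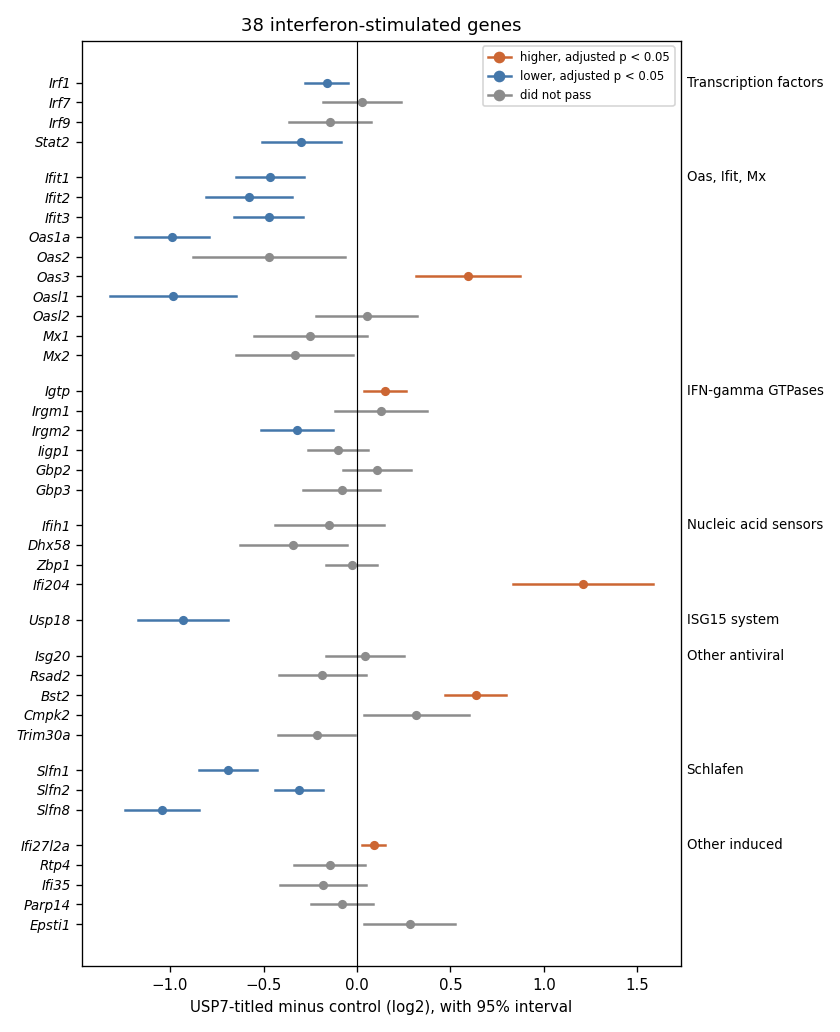
Log2 change, USP7-titled minus control, of each of the 38 measured interferon-stimulated genes (points) with the limma 95% interval (lines), arranged by role. Blue genes fell (12), orange genes rose (5) and grey genes did not pass; Slfn8, Oas1a, Oasl1 and Usp18 lie farthest to the left and Ifi204 farthest to the right.

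Scaling decides part of this balance. When arrays were shifted to equal hybridization spikes, bacterial transcripts added in known amount, the median change of all genes moved from -0.05 to 0.11. The members' median then was 0.0041, still below that of all genes, with 8 lower and 7 higher. Genes whose call was lost in that setting were Irf1, Stat2, Irgm2 and Slfn2, all of them among the smaller falls. The 5 type I induced genes described next fell under every scaling tried.

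The promoters below show the DNA elements these genes are known for, in genes that fell and in genes that rose. Each is the 160 bases before the annotated start, read 5′ to 3′ on the gene's strand from RefSeq (GRCm38.p6). Capitals mark matches to the ISRE core GAAANNGAAA, sought on both strands (TTTCNNTTTC on the other), or to the GAS core TTCNNNGAA, which reads the same on both. Ifit1, Ifit3 and Oas1a fell, and Oas3 and Bst2 rose. Igtp and Irgm2 are interferon-gamma induced GTPases, of which Igtp passed as higher and Irgm2 as lower, neither with a stable call. Every gene printed has an ISRE match, which not all members have. Irf1, Ifit2, Oasl1, Slfn1 and Slfn2 fell and have a promoter entry, but no ISRE core was found for them, and they are not printed.
Ifit1 (chr19:34640729-34640888, plus strand): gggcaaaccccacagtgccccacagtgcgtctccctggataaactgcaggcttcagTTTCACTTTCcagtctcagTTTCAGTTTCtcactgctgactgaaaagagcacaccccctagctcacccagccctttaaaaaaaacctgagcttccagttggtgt
Ifit3 (chr19:34583369-34583528, plus strand): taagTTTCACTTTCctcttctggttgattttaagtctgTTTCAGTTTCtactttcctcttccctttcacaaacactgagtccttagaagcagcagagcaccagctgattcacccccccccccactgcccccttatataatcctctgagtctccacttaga
Oas1a (chr5:120907526-120907685, minus strand): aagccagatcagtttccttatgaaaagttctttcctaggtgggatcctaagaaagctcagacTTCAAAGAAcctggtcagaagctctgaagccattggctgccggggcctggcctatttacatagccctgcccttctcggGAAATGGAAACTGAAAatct
Oas3 (chr5:120777660-120777819, minus strand): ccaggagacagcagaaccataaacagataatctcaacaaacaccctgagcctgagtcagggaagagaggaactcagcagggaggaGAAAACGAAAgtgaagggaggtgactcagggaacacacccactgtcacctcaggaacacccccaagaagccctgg
Bst2 (chr8:71537473-71537632, minus strand): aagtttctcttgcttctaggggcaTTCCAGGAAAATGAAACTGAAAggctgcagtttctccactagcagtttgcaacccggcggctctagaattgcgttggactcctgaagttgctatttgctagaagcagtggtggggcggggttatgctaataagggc
Igtp (chr11:58199396-58199555, plus strand): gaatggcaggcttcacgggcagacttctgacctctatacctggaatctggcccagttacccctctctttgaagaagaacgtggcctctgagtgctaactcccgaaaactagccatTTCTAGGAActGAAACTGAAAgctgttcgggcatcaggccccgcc
Irgm2 (chr11:58214817-58214976, plus strand): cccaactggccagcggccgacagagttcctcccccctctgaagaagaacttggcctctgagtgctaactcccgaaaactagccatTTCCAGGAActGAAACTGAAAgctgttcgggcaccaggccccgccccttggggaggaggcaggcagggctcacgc

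Matches to the ISRE core overlap each other in Oas1a and in Bst2, where a GAS match runs into them. In Igtp and Irgm2 a GAS match is followed after a pair of bases by an ISRE match. In the 250 bases before the start, an ISRE core was found for 14 of the 27 measured members with a promoter entry (51.9%), against 3.35% of the 9887 genes measured here that have one. A GAS core was found for 7 of the 27 (25.9%), against 7.31%. Among the members that fell, 6 of 11 with an entry had an ISRE core, as had 3 of 3 that rose and 5 of 13 that did not pass. The matches describe these windows and do not show binding.

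**Figure D2:**
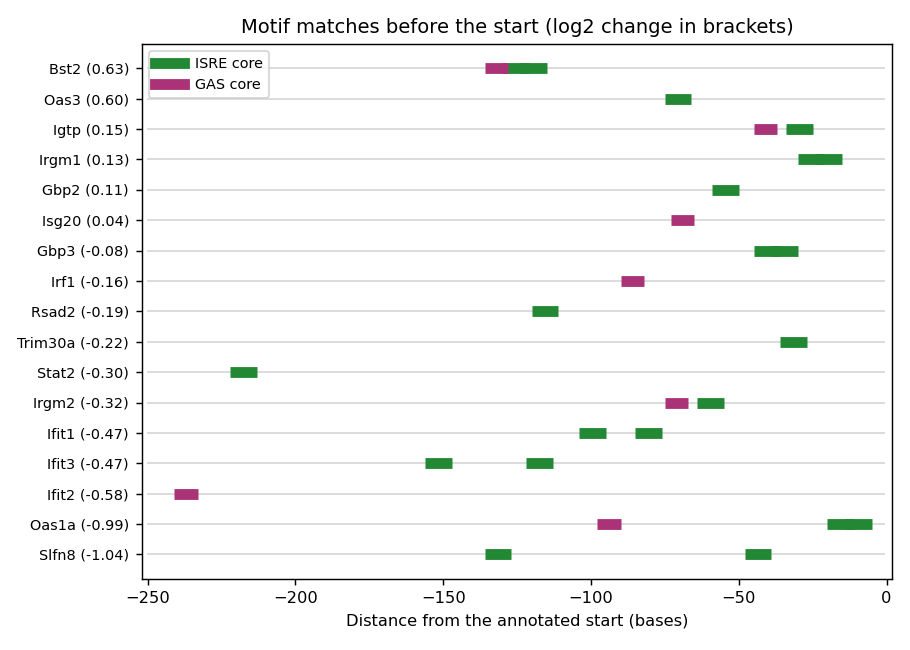
Positions of ISRE core (green) and GAS core (purple) matches in the 250 bases before the annotated start, in bases from the start, for the 17 measured members with a match. Genes are ordered by log2 change (in brackets), from Slfn8 (-1.04, bottom) to Bst2 (0.63, top); members with several annotated starts show the matches before each, and ISRE cores stand in genes that fell, rose and did not pass.

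Type I induced genes of the Ifit family fell together. Their proteins bind viral RNA and block its translation. Ifit1 read 10.44, 10.67 and 10.59 in controls against 10.10, 10.04 and 10.15 in the USP7-titled group, changing by -0.47 (SE 0.083, limma adjusted p = 0.00121). Ifit2 read 9.63, 9.70 and 9.62 against 8.89, 9.20 and 9.13, a change of -0.58 (SE 0.11, limma adjusted p = 0.00141). Ifit3 read 10.21, 10.07 and 10.12 against 9.69, 9.69 and 9.62, a change of -0.47 (SE 0.083, limma adjusted p = 0.0012). In each of the 3 genes all USP7-titled arrays lay below all controls. That leaves 72.3%, 67.0% and 72.1% of the control level.

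The Oas family did not move as one. Oas enzymes sense double-stranded RNA and make oligoadenylates that activate RNase L. Oas1a read 10.34, 10.23 and 10.21 in controls against 9.37, 9.19 and 9.25 in the USP7-titled group, which is 50.4% of control (change -0.99, SE 0.091, limma adjusted p = 1.13e-05). The groups lay well apart, with an SD of 0.072 in controls and 0.095 in the other group. Oasl1, a relative without enzyme activity that restrains Irf7, read 7.66, 7.65 and 7.58 against 6.99, 6.42 and 6.52, a change of -0.99 (SE 0.15, limma adjusted p = 0.0005). The controls were tight and the USP7-titled arrays spread, with replicate 1 the highest.

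Oas3 went the other way. It read 8.58, 8.80 and 8.82 in controls against 9.11, 9.50 and 9.38 in the USP7-titled group, a rise of 0.60 (SE 0.13, limma adjusted p = 0.00376), or 1.51-fold, and the groups did not overlap. Oas2, at 9.17, 8.97 and 8.84 against 9.005, 8.32 and 8.24, did not pass (change -0.47, SE 0.19, limma adjusted p = 0.0754). Its USP7-titled replicate 1 lay among the controls. Without that array the change was -0.71 and the gene passed. Oasl2, at 8.41, 8.23 and 8.42 against 8.26, 8.58 and 8.38, differed by 0.05 with a 95% interval of -0.22 to 0.32, and the groups overlapped throughout.

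The Mx genes encode dynamin-like GTPases that trap viral components, and C57BL/6 mice carry a defective Mx1. Mx1 read 7.78, 8.07 and 7.90 in controls against 7.83, 7.73 and 7.44 in the USP7-titled group (change -0.25, 95% interval -0.55 to 0.05). Mx2 read 6.52, 6.60 and 6.84 against 6.10, 6.46 and 6.40 (change -0.33, SE 0.14, limma adjusted p = 0.1). The Mx2 groups did not overlap, but the gap between the nearest arrays was small and neither gene passed. In all, 5 of the 10 Oas, Ifit and Mx genes fell, 1 rose and 4 did not pass. Their median was -0.47. Over all genes 15.9% fell and 17% rose. Each of the 5 falls and the rise of Oas3 also passed when any 1 array was left out.

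**Figure D3:**
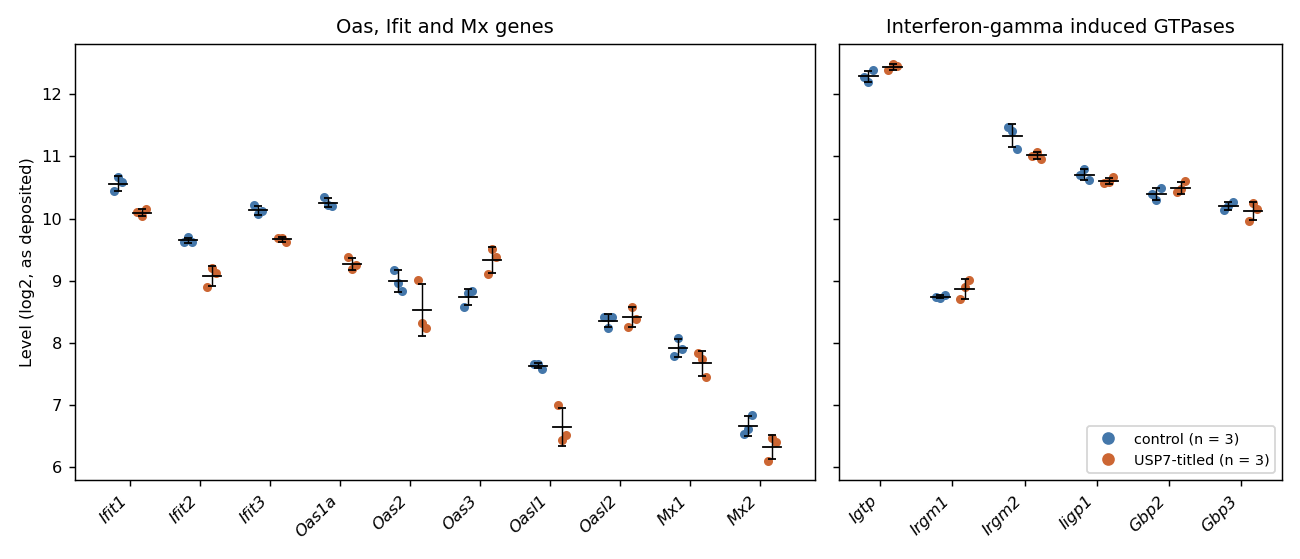
Level (log2, as deposited) of the Oas, Ifit and Mx genes (left) and the interferon-gamma induced GTPases (right) in each array; points are arrays, horizontal bars group means and error bars SD (n = 3 per group). USP7-titled points lie below the controls in Ifit1, Ifit2, Ifit3, Oas1a, Oasl1, Mx2 and Irgm2 and above them in Oas3; elsewhere the groups overlap. Levels of different genes are not comparable.

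The 6 listed interferon-gamma induced GTPases changed little. Of 5 measured relatives outside the list, grouped by family name with the results known, 4 fell, beside 15.9% of all genes. Those that fell were Gbp2b (-2.88), Gbp8 (-0.82), Gbp6 (-0.43) and Ifi47 (-0.18). The call of Gbp6 was lost with equal hybridization spikes, as was that of Ifi47, which was lost also without control replicate 1 or USP7-titled replicate 1 or 2. These proteins coat vacuoles that hold intracellular pathogens; Irgm1, Irgm2 and Igtp regulate the effector Iigp1, and Gbp2 and Gbp3 are guanylate-binding proteins. Igtp read 12.28, 12.21 and 12.39 in controls against 12.39, 12.49 and 12.45 in the USP7-titled group, a rise of 0.15 (SE 0.051, limma adjusted p = 0.0408). Irgm2 read 11.47, 11.42 and 11.12 against 11.02, 11.08 and 10.96, changing by -0.32 (SE 0.087, limma adjusted p = 0.0155). Igtp groups met at 12.39, and the lowest Irgm2 control stood just above the highest USP7-titled array. Neither call was stable. That of Igtp was lost without control replicate 1 or 2 or USP7-titled replicate 2 or 3, with an adjusted p of up to 0.158. That of Irgm2 was lost without control replicate 1 or 2 or USP7-titled replicate 3, with an adjusted p of up to 0.0750.

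The other 4 did not pass, and their intervals bound what these arrays allow. Irgm1 read 8.73, 8.72 and 8.77 against 8.70, 8.90 and 9.01 (change 0.13, 95% interval -0.12 to 0.37). Iigp1 read 10.70, 10.79 and 10.63 against 10.57, 10.58 and 10.67 (change -0.10, 95% interval -0.26 to 0.058). These groups overlapped. Gbp2 read 10.39, 10.30 and 10.49 against 10.42, 10.47 and 10.61 (change 0.11, 95% interval -0.072 to 0.29). Gbp3 read 10.14, 10.20 and 10.27 against 9.95, 10.24 and 10.16 (change -0.083, 95% interval -0.29 to 0.12). Second probe sets of Iigp1 and Gbp2 read 0.05 and 0.24 and did not pass.

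Set side by side, the median change was -0.47 for the 10 Oas, Ifit and Mx genes, 0.01 for the 6 GTPases and -0.05 for all genes. In single arrays the mean deviation from the control mean was -0.36, -0.38 and -0.44 for the former in USP7-titled replicates 1, 2 and 3. For the GTPases it was -0.10, 0.017 and 0.032. All 3 USP7-titled arrays thus showed the lower Oas, Ifit and Mx mean, and none an equally low GTPase mean. With hybridization spikes equal, these 3 medians were -0.31, 0.17 and 0.11. The GTPase values leave out the relatives named above. This difference between groups of genes is a description and was not tested.

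**Figure D4:**
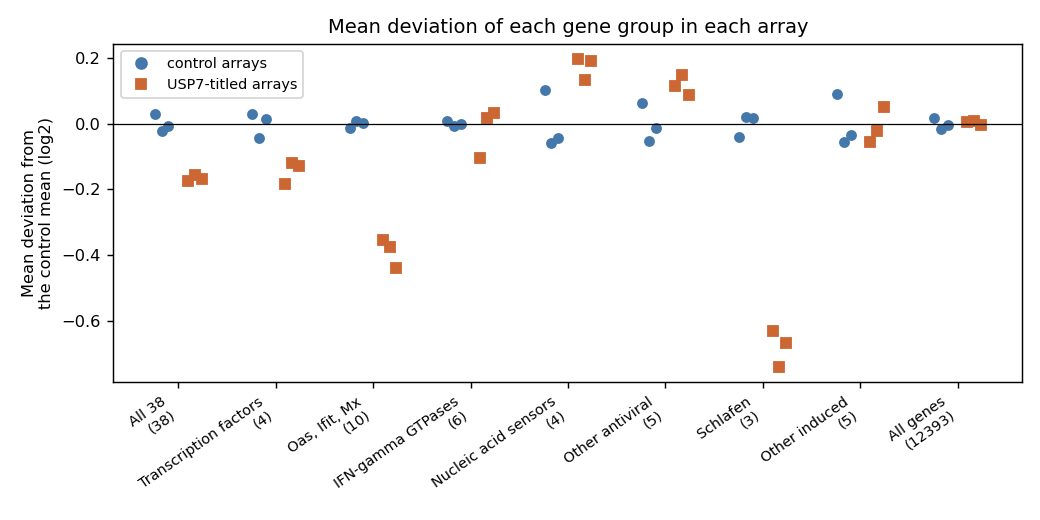
Mean deviation from the control mean (log2) over the genes of each role group, in each control (circles) and USP7-titled (squares) array; the number of genes is in brackets, and Usp18, alone in its group, is not drawn (-0.79 to -1.12). In the USP7-titled arrays the Schlafen genes lie at -0.63 to -0.74 and the Oas, Ifit and Mx genes at -0.36 to -0.44, while the GTPases stay between -0.10 and 0.032.

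The 3 listed Schlafen genes fell. Schlafen genes are known for restraining T cell proliferation. Outside the list, Slfn3 rose by 1.04 (SE 0.18, limma adjusted p = 0.000888) and Slfn4 did not pass (-0.38). Slfn8 read 11.03, 11.09 and 11.33 in controls against 10.21, 10.08 and 10.04 in the USP7-titled group, which is 48.6% of control (change -1.04, SE 0.090, limma adjusted p = 7.14e-06). Slfn1 read 11.84, 11.90 and 11.70 against 11.19, 11.01 and 11.17 (change -0.69, SE 0.070, limma adjusted p = 2.44e-05). In both the lowest control stood far above the highest USP7-titled array. Slfn2 read 11.39, 11.46 and 11.42 against 11.09, 11.08 and 11.18 (change -0.31, SE 0.057, limma adjusted p = 0.0016). Its fall was smaller but the groups did not overlap, and with equal hybridization spikes it was -0.15 and did not pass (limma adjusted p = 0.199).

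Usp18 fell nearly as far as Slfn8. Usp18 removes the ubiquitin-like protein Isg15 from its targets and also sits on Ifnar2, where it dampens type I signalling. It read 9.55, 9.55 and 9.58 in controls against 8.68, 8.77 and 8.44 in the USP7-titled group, which is 52.4% of control (change -0.93, SE 0.11, limma adjusted p = 6.75e-05). The controls lay within a few hundredths of each other and far above all USP7-titled arrays. Of its partners in the Isg15 system, the activating enzyme Uba7 fell by 0.55 (SE 0.076, limma adjusted p = 0.000224), and by each of its 3 probe sets. The conjugating enzyme Ube2l6 differed by 0.21 and did not pass (limma adjusted p = 0.403).

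Of the 4 listed transcription factors of the response, 2 fell by small amounts and 2 did not pass. Stat2, a partner of Irf9, read 9.73, 9.59 and 9.71 in controls against 9.42, 9.45 and 9.26 in the USP7-titled group (change -0.30, SE 0.096, limma adjusted p = 0.033). A second Stat2 probe set gave -0.25 and did not pass (limma adjusted p = 0.0709 over all probe sets). Irf1 read 11.62, 11.63 and 11.55 against 11.46, 11.47 and 11.39 (change -0.16, SE 0.053, limma adjusted p = 0.035). In neither gene did the groups overlap, but the gaps were small. The call of Stat2 was lost without control replicate 1 or 3 or USP7-titled replicate 3, with an adjusted p of up to 0.114, and with the replicate block. That of Irf1 was lost in 5 of 6 fits that left out an array, all but the one without control replicate 3, with an adjusted p of up to 0.122. Irf9 did not pass (change -0.14, 95% interval -0.36 to 0.077). Irf7, which drives the production of interferon alpha, read 9.21, 9.18 and 9.24 against 9.18, 9.21 and 9.33 (change 0.03, 95% interval -0.18 to 0.24).

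Among sensors of foreign nucleic acid, Ifi204 rose and the rest did not pass. Ifi204, of the PYHIN family of DNA sensors, read 2.82, 2.59 and 2.82 in controls against 3.89, 3.64 and 4.34 in the USP7-titled group, a rise of 1.21 (SE 0.17, limma adjusted p = 0.000247), or 2.32-fold. These levels lie near the bottom of the arrays' range of 2.21 to 15.03. Whether they exceed background was not analysed. Dhx58, a helicase that tunes RNA sensing, read 9.19, 9.05 and 8.73 against 8.74, 8.58 and 8.63 (change -0.34, SE 0.13, limma adjusted p = 0.066), while its dimmest probe set fell by 0.74 (limma adjusted p = 0.00637). The RNA sensor Ifih1, known as MDA5, differed by -0.15 (95% interval -0.44 to 0.14). Zbp1, which senses Z-form nucleic acid, differed by -0.028 (95% interval -0.17 to 0.11).

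Of other antiviral effectors, Bst2 rose. Bst2, known as tetherin, holds budding virus at the cell surface. It read 10.09, 9.96 and 9.997 in controls against 10.68, 10.62 and 10.64 in the USP7-titled group, a rise of 0.63 (SE 0.074, limma adjusted p = 6.77e-05), or 1.55-fold, with groups far apart. Cmpk2, a nucleotide kinase of mitochondria, read 8.44, 8.42 and 8.11 against 8.79, 8.55 and 8.58 (change 0.32, SE 0.13, limma adjusted p = 0.0822). Its dimmer probe set rose by 0.89 (limma adjusted p = 0.00207). Rsad2, which encodes viperin, differed by -0.19 (95% interval -0.42 to 0.048) and its other probe sets by -0.12 and -0.21. The exonuclease gene Isg20 differed by 0.044 (95% interval -0.16 to 0.25), and Trim30a, of the TRIM family, by -0.22 (SE 0.093, limma adjusted p = 0.102).

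Of the remaining induced genes, Ifi27l2a rose slightly. It read 13.12, 13.11 and 13.11 in controls against 13.17, 13.21 and 13.23 in the USP7-titled group, a rise of 0.090 (SE 0.027, limma adjusted p = 0.0264). The call was lost without control replicate 1 or 2 or USP7-titled replicate 2 or 3, with an adjusted p of up to 0.108. Epsti1 read 10.36, 10.18 and 10.34 against 10.37, 10.53 and 10.82 (change 0.28, SE 0.11, limma adjusted p = 0.0738), and its dimmest probe set rose by 0.77 (limma adjusted p = 0.00349). Both Epsti1 and Cmpk2 had USP7-titled arrays above every control by the probe set used, although neither passed. Rtp4 (-0.15), Ifi35 (-0.18) and the ADP-ribosyltransferase gene Parp14 (-0.080) did not pass, and their 95% intervals all included 0.

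Some markers of other cell types moved in the same arrays as the rises of Bst2, Ifi204 and Oas3. The counts below stand beside 17% of all genes that rose and 15.9% that fell. Of 18 myeloid markers 13 rose and 2 fell, and their summed linear level went from 7603 to 8412 in controls to 9542 to 11309 in USP7-titled arrays. Lyz2 and Lyz1 rose by 1.65 and 2.48 and the complement gene C1qb by 2.86, whereas Ctss fell by 0.48. Of 9 dendritic cell markers, which include Bst2 itself and Irf8, 5 rose, with Tcf4 at 1.005 and Clec10a at 0.98, and 1 fell, the conventional dendritic cell factor Zbtb46 at -0.96 (limma adjusted p = 0.000394). Ccr9, Flt3 and Xcr1 did not pass, and the rises numbered 3 without control replicate 1 or 3 or USP7-titled replicate 1 or 2. The dendritic sum went from 2368 to 2511 to 3054 to 3165. Bst2 is the brightest of the 9 (mean 10.01 in controls and 10.65 in USP7-titled arrays). The sum is therefore not independent of the rise of Bst2. Of 10 CD8 T and NK cell markers 4 rose, namely Tyrobp (1.85) and the granule genes Nkg7 (2.76), Gzma (3.21) and Gzmb (3.29), and the perforin gene Prf1 fell by 0.45 (limma adjusted p = 0.00246). Cd8a (0.018), Cd8b1 (-0.23), Ncr1 (-0.15) and Eomes (-0.52) were among those that did not pass. The sum of these 10 went from 3921 to 4010 to 13938 to 14731. Gzmb and Nkg7 weigh most in its rise, at means of 12.64 and 12.24 in USP7-titled arrays against 9.35 and 9.47 in controls. Of 8 B cell markers 1 rose (Ms4a1, 0.998) and 1 fell (Cr2, -0.59), with Ighm at -0.039 and Cd79b at 0.23, and the sums overlapped at 5475 to 5817 and 5338 to 5921. The call of Ms4a1 was lost without control replicate 1 or USP7-titled replicate 2. Of 10 Treg and T cell genes 0 rose and 7 fell, Foxp3 and Ctla4 (-0.36) the farthest, with Cd3d at -0.070 and Cd4 at 0.014. The sum of these 10 went from 63019 to 64616 to 50483 to 51239. Foxp3 weighs most in its fall, at 12.82 to 13.13 in controls against 6.85 to 7.29 in USP7-titled arrays. Of these T cell genes 4 fell without control replicate 2 or USP7-titled replicate 2 or 3, 4 with equal array medians and 2 with eBayes without trend. With equal hybridization spikes 2 fell and 1 rose. No marker is listed at 0. The part of these cells in the changes of interferon-stimulated genes was not tested.

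Upstream, receptor and kinase transcripts fell more often than they rose. Of 7 measured, 4 fell and 1 rose, with a median of -0.39 (3 and 2, median -0.23, with equal hybridization spikes). In the reported fit these are 57.1% and 14.3%, beside 15.9% and 17% of all genes. Ifnar1, a chain of the type I receptor, read 10.16, 10.07 and 10.14 in controls against 9.63, 9.72 and 9.81 in the USP7-titled group (change -0.40, SE 0.085, limma adjusted p = 0.00385), and its call was lost with equal hybridization spikes. Ifnar2, the other chain, read 11.62, 11.44 and 11.42 against 11.12, 11.03 and 11.17 (change -0.39, SE 0.070, limma adjusted p = 0.00141). In both chains all USP7-titled arrays lay below the controls. Ifngr2, the signalling chain of the interferon gamma receptor, read 10.29, 10.30 and 10.42 against 9.65, 9.83 and 9.71 (change -0.61, SE 0.086, limma adjusted p = 0.000258). Jak1, which serves both receptors, read 11.82, 11.86 and 11.72 against 11.32, 11.12 and 11.17 (change -0.60, SE 0.066, limma adjusted p = 4.61e-05). All probe sets of Ifnar2, Ifngr2 and Jak1 fell. Jak2 read 0.29 higher (SE 0.098, limma adjusted p = 0.0399), but a second probe set read 0.081 and its call was lost without control replicate 1 or 2 or USP7-titled replicate 1 or 3. Ifngr1 (0.23) and Tyk2 (-0.34) did not pass.

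Among ligands, interferon gamma rose. Ifng read 7.44, 6.90 and 7.57 in controls against 9.20, 8.68 and 8.84 in the USP7-titled group, a rise of 1.60 (SE 0.19, limma adjusted p = 6.52e-05), or 3.04-fold. All USP7-titled arrays stood well above the highest control. Beside it, Cxcl9, a chemokine that interferon gamma induces, read 4.04, 4.60 and 4.28 against 5.19, 5.23 and 6.23 (change 1.24, SE 0.25, limma adjusted p = 0.003), a low level. Cxcl10 (-0.020) and the class II transactivator Ciita (-0.11), induced by interferon gamma as well, did not pass. Probe sets annotated to Ifna1 and Ifnab, at -0.78 and -0.43, passed as lower, but interferon alpha genes are near-identical copies, and both values come from probe sets whose suffix marks probes that may bind other transcripts. The call of Ifnab was lost in 5 of 6 fits that left out an array, all but the one without control replicate 3. Ifnb1 did not pass (-0.013, 95% interval -0.28 to 0.25).

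**Figure D5:**
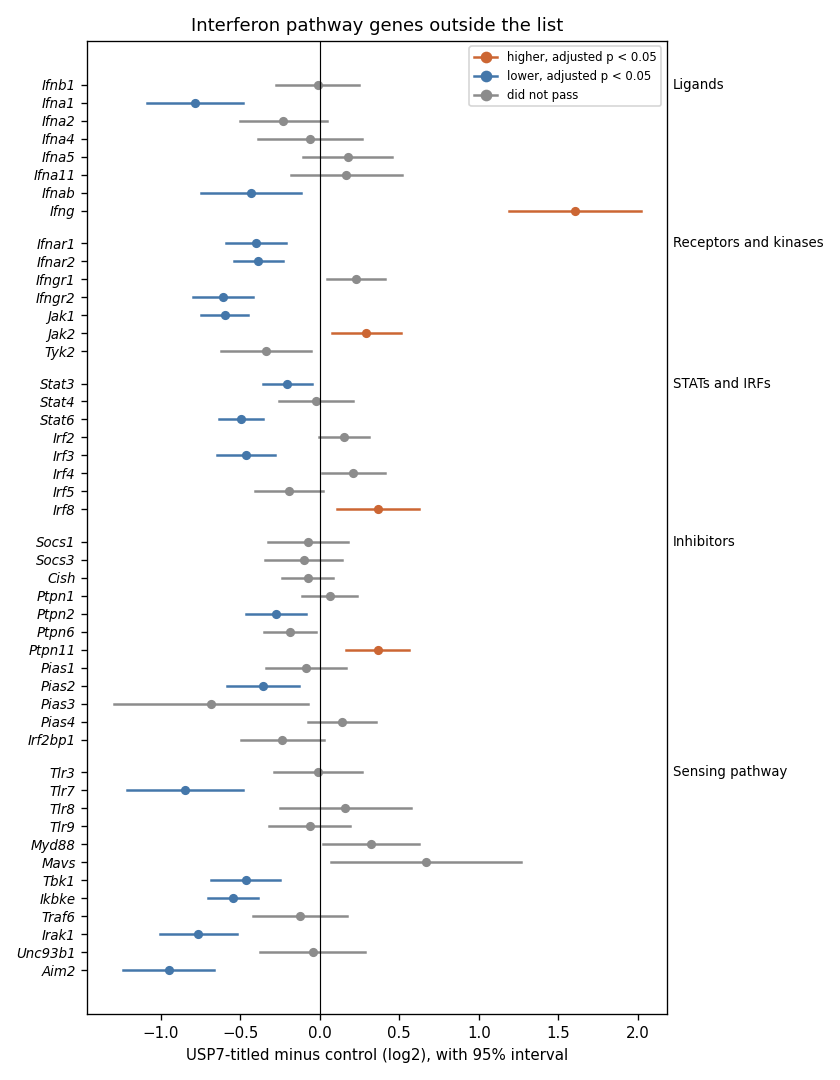
Log2 change, USP7-titled minus control, with the limma 95% interval for measured genes of the interferon pathway outside the list: ligands, receptors and kinases, STATs and IRFs, inhibitors and the sensing pathway. Blue genes fell, orange genes rose and grey genes did not pass; Ifng is farthest to the right (1.60) and Aim2 farthest to the left (-0.95).

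Other STAT and IRF factors fell in part. Of 8 STAT and IRF genes outside the list 3 fell and 1 rose (37.5% and 12.5%), beside 15.9% and 17% of all genes. Stat6, the factor of interleukin-4 signalling, fell by 0.49 (SE 0.063, limma adjusted p = 0.000124). Irf3, which switches on interferon beta, read 10.69, 10.55 and 10.62 against 10.08, 10.11 and 10.28, a change of -0.46 (SE 0.082, limma adjusted p = 0.00121), and it fell by all 4 of its probe sets, by up to 1.14. Irf3 and Stat6 kept their calls when any 1 array was left out. Stat3 (-0.20) and Irf8 (0.37) passed by little and each lost the call in 5 of 6 such fits, Stat3 in all but the one without control replicate 3 and Irf8 in all but the one without control replicate 2.

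In the sensing pathway 5 of 12 measured genes fell and 0 rose (41.7% and 0%), beside 15.9% and 17% of all genes. All 5 fell in every fit that left out an array. With equal hybridization spikes 5 fell and 2 rose, and without USP7-titled replicate 1 or 2 there was 1 rise. Aim2, a sensor of cytosolic DNA, fell by 0.95 (SE 0.13, limma adjusted p = 0.000192). Tlr7, an endosomal RNA receptor, read 8.86, 8.91 and 8.54 against 7.58, 8.21 and 7.99 (change -0.85, SE 0.17, limma adjusted p = 0.00233). Irak1, a kinase below the Toll-like receptors, fell by 0.76 (SE 0.11, limma adjusted p = 0.000287), while 2 of its 4 probe sets did not pass. Tlr7 and Irak1 lie on the X chromosome, and the groups differ in Xist as given above. Ikbke, a kinase that activates Irf3, fell by 0.55 (SE 0.072, limma adjusted p = 0.000156), and the related Tbk1 fell by 0.46 (SE 0.099, limma adjusted p = 0.00383).

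Inhibitors of the pathway mostly did not pass, 9 of 12, as was so for 8315 of all 12393 genes. Of the inhibitors 16.7% fell and 8.33% rose, beside 15.9% and 17% of all genes. Socs1 and Socs3, which block Jak kinases, differed by -0.073 and -0.10. The phosphatase genes Ptpn11 (0.37) and Ptpn2 (-0.28) passed, as did Pias2 (-0.36), a SUMO ligase. The call of Ptpn11 was lost with the mean of its probe sets (limma adjusted p = 0.0538), and its other 2 probe sets did not pass. A second Pias2 probe set read 0.39, and Pias2 was lost without control replicate 1 or 2 or USP7-titled replicate 1 or 2. Ptpn2 was lost without control replicate 2 or 3 or USP7-titled replicate 1 or 3.

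Among 41 measured interferon-stimulated genes outside the list, 19 passed as lower (46.3%) and 7 as higher (17.1%). Of all genes, 15.9% passed as lower and 17% as higher. The median change of the 41 was -0.11. The rises numbered 4 without control replicate 3 and 3 with eBayes without trend. With equal hybridization spikes 9 fell and 8 rose, and the median was 0.048, below the 0.11 of all genes. Sp110, a nuclear body protein, read 9.66, 9.69 and 9.84 in controls against 8.52, 8.53 and 8.61 in the USP7-titled group (change -1.18, SE 0.099, limma adjusted p = 6e-06), and its dimmest probe set did not pass (-0.098). Oas1c read 9.47, 9.36 and 9.20 against 8.24, 8.67 and 8.72 (change -0.80, SE 0.14, limma adjusted p = 0.00105), in the direction of Oas1a. Gbp2b, a guanylate-binding protein, fell the farthest of these 41. It read 8.61, 8.54 and 8.44 against 5.28, 5.53 and 6.16 (change -2.88, SE 0.20, limma adjusted p = 1.2e-06), while its relatives Gbp2 and Gbp3 in the list did not pass.

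Members differed in how firmly they were measured. Of the 17 called members, 12 passed whichever array was left out, 9 of them lower and 3 higher. The 9 were Ifit1, Ifit2, Ifit3, Oas1a, Oasl1, Usp18, Slfn1, Slfn2 and Slfn8, and the 3 were Oas3, Ifi204 and Bst2. Of these, Ifi204 lies near the bottom of the arrays' range, and whether it exceeds background was not analysed. The median SD of members within a group was 0.094 in controls and 0.099 in USP7-titled arrays. In 14 members all USP7-titled arrays lay below all controls and in 6 above, beside 24.7% and 20.9% of all genes (45.6% in either direction). The number of arrays, 3 per group, limits the precision, and 5 members that did not pass did so in some other fit or at the looser threshold, Dhx58, Oas2 and Trim30a as lower and Cmpk2 and Epsti1 as higher.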

How the data were processed

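Gene expression was measured on 6 arrays of amplified, biotin-labelled total RNA, 3 per group. The deposited values are log2 levels per probe set, as the authors made them; the base was read from the range of the values, and how probes were summarised and normalized is not given in the sources used here. No scanner signal, background or detection call was analysed, so low values may be background. Probe sets number 22690, of which 64 are array controls, 20380 carry 1 gene symbol in the platform annotation, 691 several and 1555 none; only those with 1 symbol named genes. Symbols were checked by gene identifier in RefSeq's table (20351 matched, 0 changed). The test between groups was that of limma 3.58.1 under R 4.3.3 (eBayes with trend, two-sided, Benjamini-Hochberg over 12393 genes, threshold 0.05), after a test on simulated data; the same fit over all 20380 probe sets served where probe sets of a gene are compared. The median residual SD was 0.136.

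The list, its roles, the pathway and marker lists and the tests were chosen with earlier results of these data known. Every measured member is named. Of each pathway list up to 4 called genes with the largest change were named, and of each marker list the 2 with the highest mean and the 2 called ones with the largest change. Other genes named (Uba7, Ube2l6, Cxcl10, Ciita, Tbk1, Jak2, Slfn3, Slfn4, Gbp6, Gbp8, Ifi47, Zbtb46, Ccr9, Flt3, Xcr1, Prf1, Tyrobp, Cd8a, Cd8b1, Ncr1, Eomes, Il2ra, Ikzf2, Cd5, Tnfrsf18, Cd3e, Ifngr1, Tyk2, Ifnb1, Socs1, Socs3) were picked after their values were seen. So were Cybb, Cd68, Cd14, Itgam, Mndal, Ifi209, Ifi202b, Gbp7, Oas1b, Oas1e and Oas1h. Alternatives were quantile normalization, equal array medians, equal spikes (18 probe sets), leaving out the dimmest 40% of probe sets, the mean of a gene's probe sets, robust eBayes, eBayes without trend, a block for the replicate number, array weights, thresholds of 0.01 and 0.1, and leaving out each array. The titles' replicate numbers are not shown to pair the samples. Deviations of same-numbered arrays correlated at -0.060 to 0.094, but so few arrays per group cannot exclude pairing. Promoters are RefSeq's (GRCm38.p6); the 250 bases before each start were searched with Python.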

Additional observations from a re-analysis of the deposited data

How the results depend on the processing

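Of 17 called members, 11 kept their call in each alternative fit at 0.05 in which they were tested, 8 lower and 3 higher; Oasl1 and Ifi204 were not tested with the dimmest 40% left out; and no called member changed sign. The count of members that rose was 5 and became 3 with quantile normalization, with eBayes without trend and at 0.01, and 3 to 6 without single arrays. The GTPases lower numbered 1, and 0 with equal hybridization spikes, without trend and at 0.01, and 0 to 1 without single arrays; the cause was not tested. Hdac11 did not pass as the mean of its probe sets (-0.40) or at 0.01 (-0.58), and ran from -0.69 to -0.44 without single arrays. With the replicate number as a block 17 members passed, 16 of them the same genes; the numbers are not shown to pair the samples. Signs that turned, to values that did not pass there, were under equal spikes Irf9 (0.015), Iigp1 (0.058), Gbp3 (0.077), Ifih1 (0.012), Zbp1 (0.13), Rtp4 (0.013), Parp14 (0.079), Cd3e (0.049) and Tnfrsf18 (0.044), with quantile normalization Irf7 (-0.0052) and Isg20 (-0.0073), with mean probe sets Pias2 (0.019), and without single arrays Irf7 (-0.017), Oasl2 (-0.0098 and -0.035), Gbp3 (0.00099), Zbp1 (0.0048 and 0.018) and Isg20 (-0.0063 and -0.044). Without single arrays Irf7 reached 0.059, Oasl2 0.12, Gbp3 -0.15, Zbp1 -0.075 and Isg20 0.12 at the other end. Cd3e, Tnfrsf18 and Pias2 had passed in the reported fit. The 3 arrays per group, and signal near background, limit what can be seen.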

Other observations

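Relatives of the listed genes, grouped by family name with the results known, did not always move with them. Among Schlafen genes outside the list, Slfn3 rose by 1.04 (SE 0.18, limma adjusted p = 0.000888), from 6.14 to 7.18, and Slfn4 did not pass (-0.38, limma adjusted p = 0.288), whereas Slfn1, Slfn2 and Slfn8 fell. Among PYHIN genes, which encode DNA sensors and nuclear proteins, Mndal fell by 0.71 (SE 0.062, limma adjusted p = 7.46e-06), Ifi209 by 0.74 (SE 0.072, limma adjusted p = 1.66e-05) and Aim2 by 0.95, while Ifi204 and Ifi202b (0.49, SE 0.13, limma adjusted p = 0.0121) rose. The call of Ifi202b was lost without control replicate 3.

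Guanylate-binding protein genes outside the list fell in 3 of 4 cases, beside 15.9% of all genes. Gbp8 went from 9.23 to 8.41 (change -0.82, SE 0.17, limma adjusted p = 0.00321), Gbp6 changed by -0.43 (SE 0.094, limma adjusted p = 0.00434), a call lost with equal hybridization spikes (-0.27, limma adjusted p = 0.0818), and Gbp2b by -2.88, while Gbp7 did not pass (-0.087). Of the immunity-related GTPases outside the list, Ifi47 fell by 0.18 (SE 0.051, limma adjusted p = 0.0192), a call lost without control replicate 1 or USP7-titled replicate 1 or 2. Among Oas genes outside the list Oas1b fell by 0.38 (SE 0.11, limma adjusted p = 0.0224), a call lost without control replicate 1 or 3 or USP7-titled replicate 2 or 3, and Oas1e (-0.28) and Oas1h (-0.12) did not pass.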
